A study of Mus musculus with 18 samples.

Results

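The expression of 69 genes was low in pre-osteoclasts and higher both in the bone marrow macrophages (BMMs) they came from and in the mature osteoclasts they became. The dip was deepest for Gas6, the secreted ligand of the TAM receptor kinases, whose level was 8.98-fold lower in pre-osteoclasts than in BMMs and 14.2-fold lower than in mature osteoclasts. The set also held the GTPase gene Rhoc, the vitamin B12 carrier Tcn2, apolipoprotein E (Apoe), 5 genes of cholesterol synthesis and sterol transfer, the transcription factors Egr1, Jun and Crem, and surface receptors such as Cd84, Flt1 and Htr2b. The genes were chosen from the authors' log2 values, as probes with a gene symbol that were detected on all 6 BMM and all 6 mature osteoclast arrays and whose mean over the 6 pre-osteoclast arrays lay at least 1 log2 unit below both other stage means. Of 25697 probes on the arrays, 23978 had a gene symbol, 8417 of these (6279 genes) were detected on those 12 arrays, and 81 probes met the rule. They stood for 69 genes, or 1.1% of the genes detected. The opposite pattern, a mean at least 1 unit above both other stages, was met by 37 probes.

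The cells came from C57BL/6 mice, and BMMs and later stages were grown in 30 ng/ml M-CSF. BMMs received no RANKL, pre-osteoclasts 30 ng/ml RANKL for 2 days and mature osteoclasts the same for 4 days. ERαΔLysM cells carried floxed ERα alleles deleted by Cre from the lysozyme M locus, which is active in myeloid cells, and ERαf/f cells, from littermates, carried the floxed alleles intact. Total RNA of each genotype and stage was hybridized to 3 Illumina MouseRef-8 arrays, 18 in all. The study's text gives cells of all groups 17β-estradiol for 4 h; the labels are silent on this. Mice of both genotypes were young adults. Whether the 3 arrays of a group were separate mice is not stated, and p values therefore cover only the variation among the hybridized samples.

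M-CSF keeps macrophages of the bone marrow alive and dividing, and RANKL drives them to osteoclasts, the cells that resorb bone. On the way the cells first leave the macrophage program as mononuclear pre-osteoclasts, then fuse into multinucleated cells that seal a patch of bone and dissolve it with acid and proteases.

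Neither of the 2 Esr1 probes was detected on any of the 18 arrays, so the deletion could not be checked here. The mean level of 13 osteoclast marker genes was 6.42 to 6.59 on BMM arrays, 10.10 to 10.27 on pre-osteoclast arrays and 11.10 to 11.25 on mature osteoclast arrays, in log2 units. That of 6 macrophage markers was 10.73 to 10.82 in BMMs, then 7.55 to 7.90 after 2 days and 6.97 to 7.11 after 4 days of RANKL. The mean of 8 neutrophil markers ran from 9.72 to 10.39 in BMMs, from 8.43 to 9.61 after 2 days and from 7.47 to 7.95 after 4 days. The median ERαΔLysM minus ERαf/f difference of these 8 was 0.57 without RANKL, 0.48 after 2 days of it and 0.22 after 4 days. At an adjusted p under 0.05 (limma), 1 of them was higher with the deletion at day 0, 1 at day 2 and 0 at day 4. None of these 3 lists held a member, and none had its lowest mean at the middle stage. B, T and NK cell, erythroid, mast cell, stromal, endothelial and dendritic marker lists had means between 4.68 and 5.33 on every array. In these lists Cd79a, Cd3e, Alas2, Col1a1, Pecam1 and Flt3 were detected on none of the 18 arrays. Each list also held 1 or 2 genes detected on 3 or more arrays. The brightest of those in BMMs averaged 6.09 and was in the B cell list. Lower RNA of a gene per cell and fewer cells that express it cannot be told apart in such cultures. The median signal of 7 arrays was under 150, and 2 of them were BMM, 3 pre-osteoclast and 2 mature osteoclast arrays.

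Levels below are log2 values after background correction and quantile normalization, so 1 unit is a 2-fold difference, and folds are on this scale, which understates differences of dim probes. The median of the 81 members on an array was 6.89 to 7.18 on the 6 pre-osteoclast arrays and 8.60 to 8.79 on the 12 others, while that of all 8417 detected probes stayed between 9.13 and 9.17. For 78 members (96.3%) every pre-osteoclast array lay below every other array, against 4.4% of the detected probes and 3.1% of all probes tested. Since the stage means chose the members, these counts describe them and carry no test. The exceptions were Dusp8, Pxdc1 and 1 of 3 Sec14l1 probes. The smaller of a member's 2 differences, its smaller dip, had a median of 1.24, with 5 members at 2 or more, 13 between 1.5 and 2 and 63 below 1.5. Pre-osteoclasts stood a median of 1.56 units below BMMs (range of the differences -3.58 to -1.0) and 1.35 below mature osteoclasts (-3.82 to -1.02), while the detected probes had median differences of 0.08 and 0.00. Just inside the threshold, on the authors' values, lay Slc31a2, Me1 and Atxn1, with smaller dips of 1.012, 1.011 and 1.000, and just outside it Ap3m2, Sdf4 and a further Wipi1 probe, with 0.992, 0.991 and 0.983.

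**Figure D1:**
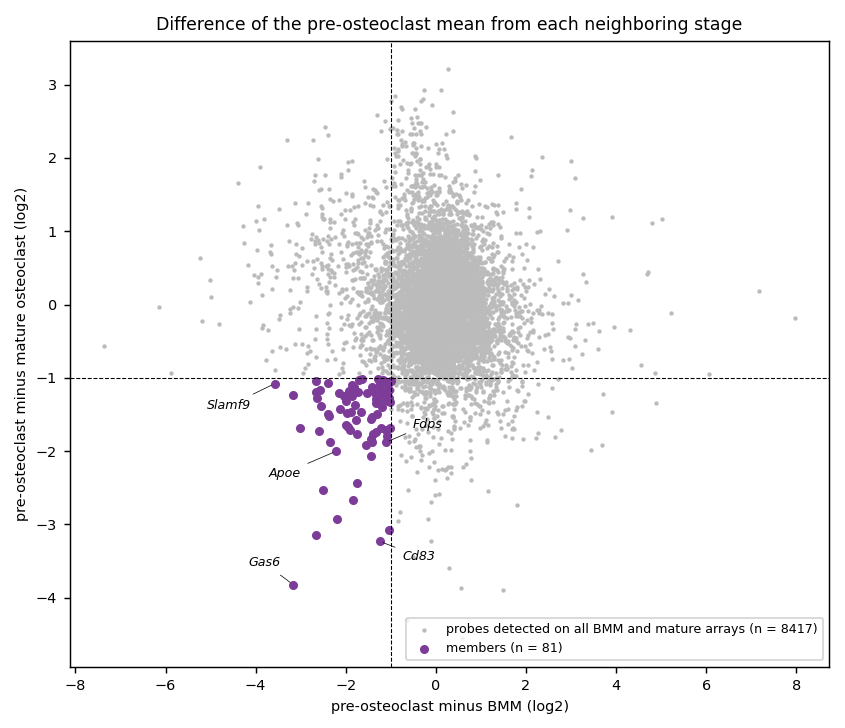
Each point is a probe, with the pre-osteoclast mean minus the BMM mean on the x axis and minus the mature osteoclast mean on the y axis (log2, 6 arrays per stage). The 81 members (purple) fill the corner below the dashed lines at -1, with Gas6 lowest and Slamf9 farthest left, among 8417 detected probes (gray) centered near 0.

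The level in mature osteoclasts was not always that of BMMs. The level in mature osteoclasts minus that in BMMs had a median of -0.10 over the members and ran from -2.50 for Slamf9 to 2.03 for Pxdc1. For 11 members (13.6%) all 6 mature arrays lay above all 6 BMM arrays, against 30.9% of the detected probes. These were the probes of Gas6, Cyp51, Fdps, B3galnt1, Slc41a2, Slc31a2, Cd83 and Pxdc1, 1 Tubb2b probe and both Syn1 probes. For 23 (28.4%) they lay below, against 25.7% of the detected probes, and for 47 the 2 stages overlapped. Cd83, a surface glycoprotein of activated antigen-presenting cells, had the mean levels 6.62 ± 0.23 in BMMs, 5.37 ± 0.44 in pre-osteoclasts, then 8.59 ± 0.22 in mature osteoclasts (SD, n = 6), and Slamf9, a SLAM family receptor, 13.33 ± 0.08, 9.75 ± 0.24 and 10.83 ± 0.20. Both met the rule, yet Cd83 ended far above its starting level and Slamf9 far below it. Cd83 was detected on 2 of the 6 pre-osteoclast arrays and on none of the ERαf/f ones. Its pre-osteoclast mean therefore rests mostly on signals not above background.

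**Figure D2:**
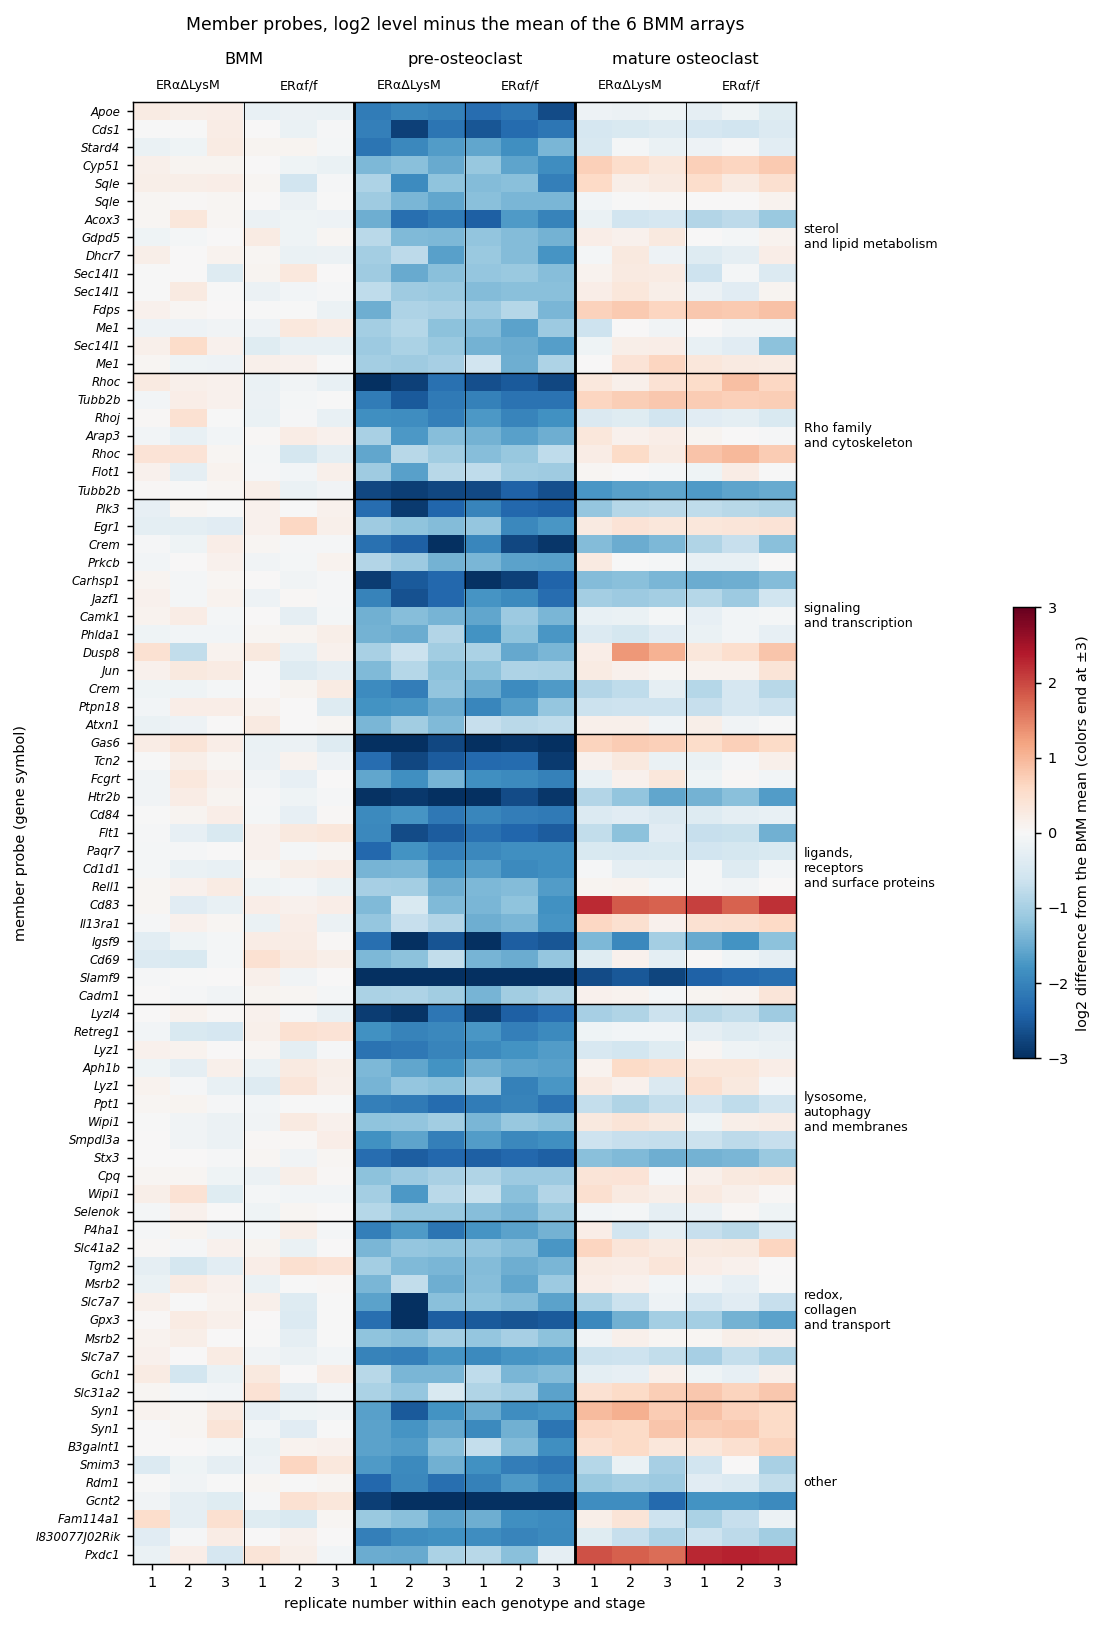
Rows are the 81 member probes grouped by role, columns the 18 arrays by stage and genotype, and color is the log2 level minus the mean of the 6 BMM arrays (scale ending at ±3). The 6 pre-osteoclast columns are blue in every group of genes, while the mature osteoclast columns range from blue, as for Slamf9 at -2.50, to red, as for Pxdc1 at 2.03.

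Among the secreted and surface proteins, 15 genes with 1 probe each, the smaller dip had a median of 1.47. Gas6 binds phosphatidylserine on dying cells and links it to the receptors Tyro3, Axl and Mertk. Its level was 11.22, 11.39 and 11.19 in ERαΔLysM BMMs, against 10.79, 10.82 and 10.61 in ERαf/f BMMs. In pre-osteoclasts it was 7.85, 7.65 and 8.27 with the deletion and 7.6, 8.08 and 7.57 without it, and in mature osteoclasts 11.66, 11.77 and 11.71 with it and 11.55, 11.72 and 11.57 without it. All 6 pre-osteoclast arrays lay at least 2.33 units below every other array. In the scanner's units, before any normalization, Gas6 gave signals of 227.2 to 503.2 on the pre-osteoclast arrays, against 1745.1 to 4721.6 on the others. The dip of Gas6 is thus present in the raw signals. Not every member was so separated before normalization. Tgm2 gave 3764.1 on ERαΔLysM pre-osteoclast replicate 1 and 2328.3 on ERαΔLysM BMM replicate 2. Tcn2 encodes transcobalamin, which carries vitamin B12 to cells. It had a lowest, median and highest level of 8.20, 8.39 and 8.55 in BMMs, 5.50, 5.96 and 6.09 in pre-osteoclasts, then 8.16, 8.42 and 8.67 in mature osteoclasts. Its levels in BMMs and mature osteoclasts overlapped fully, and the highest pre-osteoclast array lay 2.08 units below the lowest other array.

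Some receptors of this group were back at the BMM level in mature osteoclasts and others only in part. Fcgrt, the neonatal Fc receptor that recycles IgG and albumin, had means of 9.40 ± 0.20, 7.64 ± 0.24 and 9.41 ± 0.21 in BMMs, pre-osteoclasts and mature osteoclasts (SD, n = 6), and Cd84, a self-binding SLAM family receptor, 12.28 ± 0.15, 10.29 ± 0.14 and 11.94 ± 0.08. Cd1d1, which presents lipid antigens, was 3.15-fold lower in pre-osteoclasts than in BMMs and 2.77-fold lower than in mature osteoclasts. Htr2b, the serotonin receptor 2B, stood at 8.22 to 8.56 (median 8.30) in BMMs, 4.95 to 5.65 (5.40) in pre-osteoclasts, then 6.66 to 7.46 (7.0) in mature osteoclasts, so the mature level stayed 1.33 units below that of BMMs. Its pre-osteoclast signal was above detection on 2 of the 6 arrays. Flt1, the VEGF receptor 1, was detected on 1 pre-osteoclast array, with levels of 4.74 to 5.48 there, against 6.96 to 7.76 in BMMs and 5.97 to 7.07 in mature osteoclasts. Il13ra1, a chain of the IL-4 and IL-13 receptor, and Paqr7, a membrane progestin receptor, had smaller dips of 1.22 and 1.48. The early activation lectin Cd69 and the adhesion molecule Cadm1 dipped by 1.08 and 1.04. Igsf9, an immunoglobulin superfamily member, lies 3.15 kb from Slamf9 on chromosome 1 (GRCm38.p6), and was detected on 1 of the 6 pre-osteoclast arrays, so that its smaller dip of 1.19 rests on signals mostly not above background. Cd84 lies 568 kb from Slamf9 on the same chromosome.

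**Figure D3:**
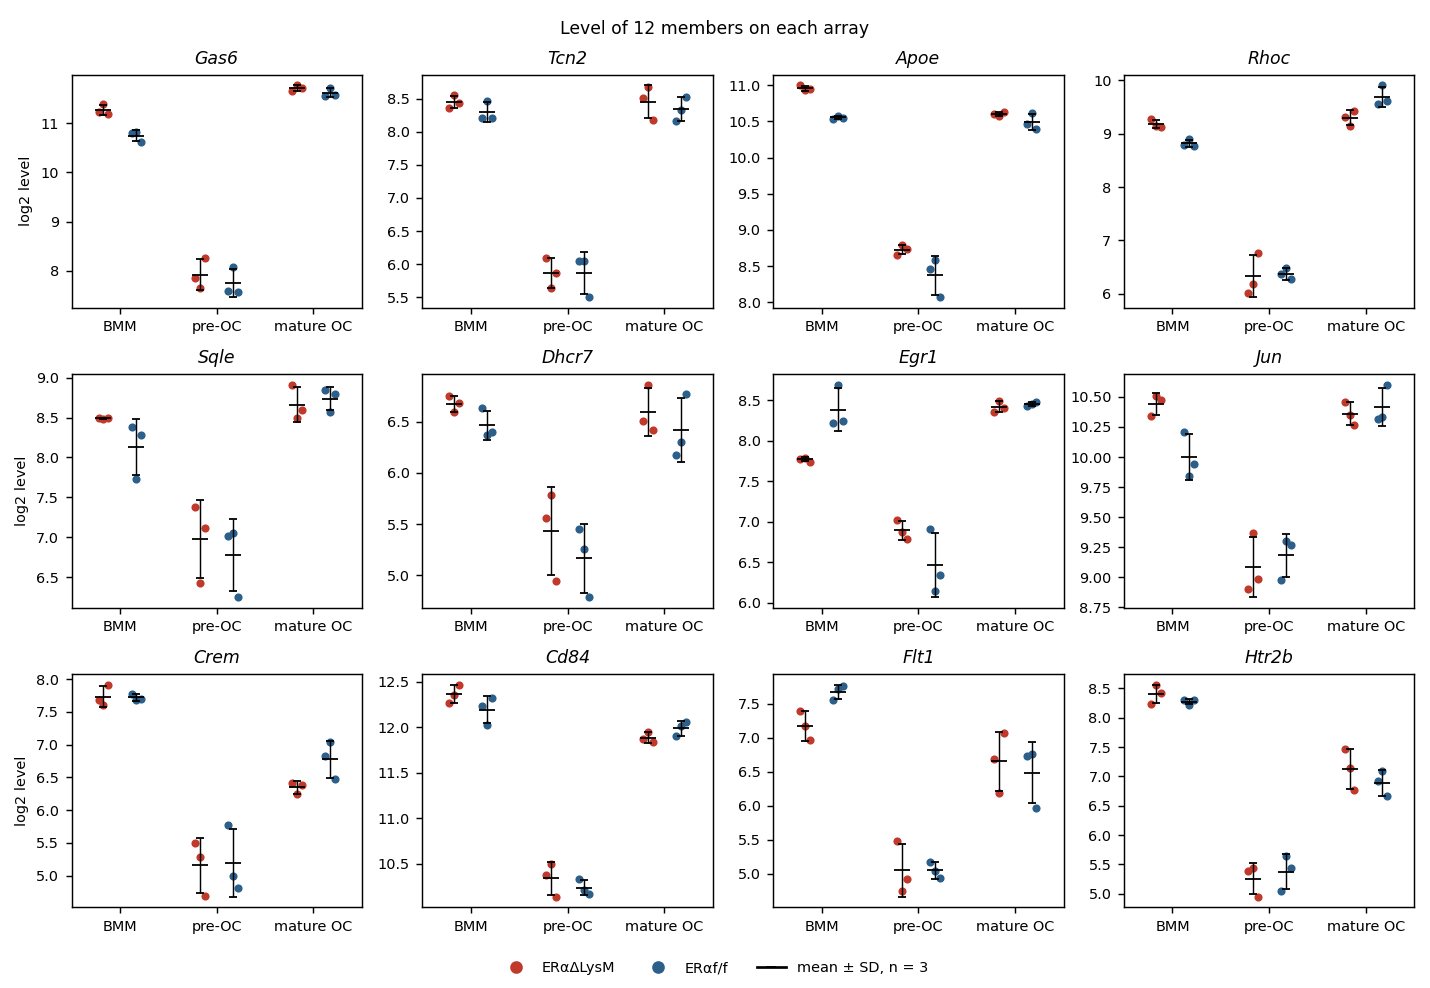
Log2 level of 12 members (y axis, own scale per gene) on each array, by stage, with ERαΔLysM (red) left of ERαf/f (blue) and bars for the mean ± SD of 3 arrays. In each panel the 6 pre-osteoclast points lie under the other 12, with the widest gap for Gas6 (2.33 units); Sqle is its dimmer probe and Crem its deeper one.

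Genes of sterol and lipid metabolism made up 11 genes with 15 probes. Cholesterol is made from acetyl-CoA by a chain of enzymes whose genes are switched on together by SREBP2 when sterol runs low. Cyp51 (lanosterol demethylase), Sqle (squalene epoxidase), Dhcr7 (the last reductase of the pathway) and Fdps (farnesyl diphosphate synthase, the target of nitrogen-containing bisphosphonates) dipped, as did Stard4, which moves sterol between membranes. Cyp51 had a lowest, median and highest level of 8.93, 9.18 and 9.29 in BMMs, 7.27, 7.71 and 8.0 in pre-osteoclasts, then 9.49, 9.82 and 9.92 in mature osteoclasts. Fdps had 11.32, 11.49 and 11.62 in BMMs, 10.02, 10.46 and 10.63 in pre-osteoclasts, then 12.14, 12.28 and 12.36 in mature osteoclasts. In both the 3 stages did not overlap, with mature osteoclasts highest. The brighter Sqle probe averaged 11.22 ± 0.09, 9.89 ± 0.16 and 11.23 ± 0.06 at these stages and the dimmer one 8.31 ± 0.30, 6.87 ± 0.43 and 8.70 ± 0.17 (SD, n = 6).

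Of 15 genes of a cholesterol synthesis list on the arrays, 14 were tested and 13 were detected on all BMM and mature osteoclast arrays. The 5 genes above were members. Pre-osteoclasts had the lowest mean of the 3 stages for 11 of the 14 (78.6%) and the highest for 0, against 22.4% lowest over all genes tested. Of the 11, 5 are members, lowest by the rule, and of the 9 genes outside the set 6 were lowest. The median difference of pre-osteoclasts from BMMs was -0.54 and from mature osteoclasts -1.33, against 0.08 and 0.00 over the detected probes. The list differed more from the stage after than from the stage before: Hmgcs1, Idi1, Insig1, Msmo1 and Pmvk were 1.22 to 1.52 units below mature osteoclasts but only 0.05 to 0.54 below BMMs. Hsd17b7 was 0.64 below mature osteoclasts and 1.30 below BMMs. In Hmgcs1, Idi1, Insig1 and Pmvk, but not in Msmo1 and Hsd17b7, pre-osteoclast arrays overlapped BMM arrays. Idi1 was also dim, with a BMM mean of 5.6. Lss, Mvd and Nsdhl were instead lowest in BMMs. The list of cholesterol efflux and LXR target genes had 1 member, Apoe, and medians of 0.13 and -0.26. Apoe, a lipid carrier that macrophages secrete, averaged 10.75 ± 0.22 in BMMs, 8.55 ± 0.26 in pre-osteoclasts, then 10.55 ± 0.09 in mature osteoclasts (SD, n = 6), and its highest pre-osteoclast array, at 8.79, lay 1.61 units below every other array. Cds1, which makes the CDP-diacylglycerol used for phosphoinositides, was 5.10-fold lower in pre-osteoclasts than in BMMs and 3.68-fold lower than in mature osteoclasts. The peroxisomal oxidase gene Acox3, the phosphodiesterase gene Gdpd5, the NADPH-producing malic enzyme Me1 and the lipid-binding protein gene Sec14l1 had smaller dips of 1.01 to 1.32 over their 7 probes.

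**Figure D4:**
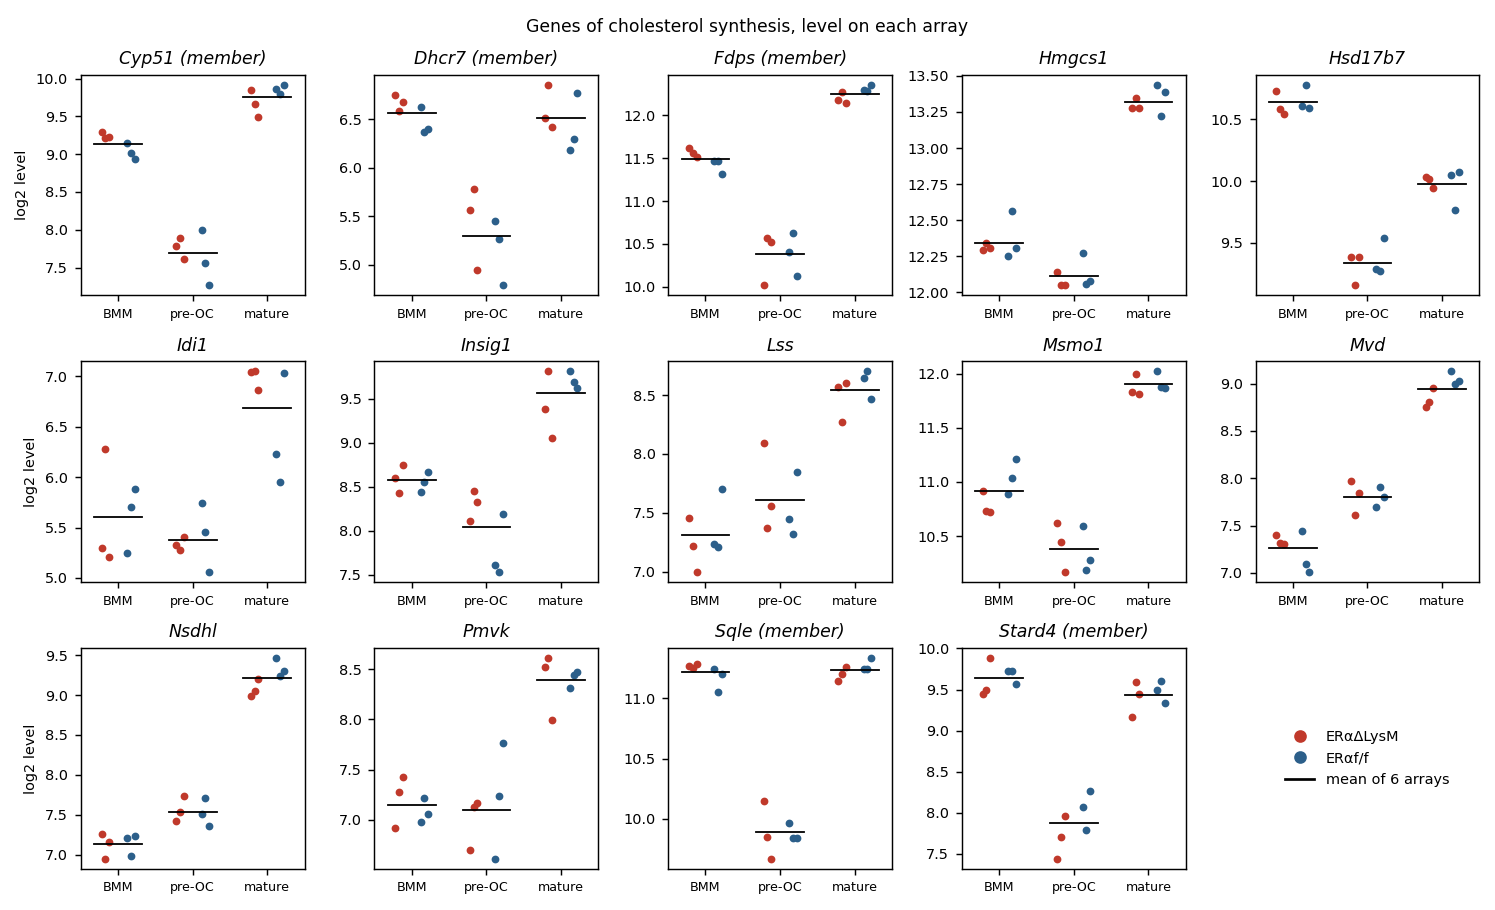
Log2 level (y axis, own scale per gene) of the 14 tested cholesterol synthesis genes on each array by stage, with ERαΔLysM (red) left of ERαf/f (blue) and lines at the mean of 6 arrays; a gene with several probes is shown by its brightest. The middle stage is lowest in 11 of the 14 genes, the exceptions being Lss, Mvd and Nsdhl, which were lowest in BMMs.

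Transcription and signaling genes counted 12 genes with 13 probes. Egr1 and Jun are immediate early genes, transcribed within minutes of a signal such as M-CSF. Egr1 was at 7.78, 7.79 and 7.74 in ERαΔLysM BMMs, against 8.22, 8.69 and 8.24 in ERαf/f BMMs, at 7.02, 6.87 and 6.79 in ERαΔLysM pre-osteoclasts, against 6.91, 6.15 and 6.34 in ERαf/f pre-osteoclasts, and at 8.36, 8.49 and 8.41 in ERαΔLysM mature osteoclasts, against 8.43, 8.45 and 8.48 in ERαf/f mature osteoclasts. Jun, a subunit of AP-1, had a lowest, median and highest level of 9.84, 10.28 and 10.51 in BMMs, 8.90, 9.13 and 9.37 in pre-osteoclasts, then 10.27, 10.34 and 10.60 in mature osteoclasts. Egr1 and Jun were the 2 members among 15 tested immediate early genes. That list had medians of -0.48 against BMMs and 0.05 against mature osteoclasts, and 5 of its genes (33.3%) were lowest in pre-osteoclasts, members included, against 22.4% of all genes tested. Another 5 of its genes were highest in pre-osteoclasts. Plk3, a stress-responsive polo-like kinase, was 5.24-fold lower in pre-osteoclasts than in BMMs and 2.82-fold lower than in mature osteoclasts. Protein kinase C beta (Prkcb) and the calmodulin-dependent kinase gene Camk1 dipped by 1.29 and 1.21, the MAP kinase phosphatase gene Dusp8 by 1.09 and the growth factor-induced gene Phlda1 by 1.12. Carhsp1, an RNA-binding protein, and Jazf1, a zinc finger cofactor, ended lower in mature osteoclasts than in BMMs, by 1.36 and 0.95 units.

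Crem encodes activators and repressors that bind the cyclic AMP response element (CRE). Of its probes 3 were detected on all BMM and mature osteoclast arrays. Their means were 7.73, 5.18 and 6.56 in BMMs, pre-osteoclasts and mature osteoclasts for the deeper member, 7.13, 5.42 and 6.45 for the other member and 6.51, 5.59 and 6.25 for the probe outside the rule, whose smaller dip was 0.66. In pre-osteoclasts these probes were detected on 2, 3 and 4 of the 6 arrays, in this order. Their pre-osteoclast means therefore rest in part on signals not above background. RefSeq promoters, from 250 bases before to 50 bases after an annotated transcript start, were given for 48 member genes (67 promoters). The palindromic CRE, TGACGTCA, was in 5 of the 67 (7.46%), against 3.39% of the 6731 promoters of detected genes and 1.79% of all 32851. The AP-1 site bound by Jun-containing dimers, TGANTCA, was in 7 (10.4%), against 5.02% and 7.81%. A CCAAT box was in 23.9% of the members' promoters, against 37.9% and 37.4%. The sterol regulatory element TCACNCCAC, searched after the members were known, was in 1 (1.49%), against 1.04% and 1.24%, and the estrogen response element was in 0, against 0% and 0.07%. Motifs were read on both strands, and the median GC content was 58.3% in the members' promoters, 60.7% in those of detected genes and 52.7% in all. Further motifs were searched that are not named here, and no motif share was tested. A match describes the sequence and is not evidence of binding.

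The stretches around the palindromic CRE, in capitals, are shown for 3 of the 5 genes that held it, Cds1, Retreg1 and Syn1, since these are members whose promoters carry the sequence that the product of the member Crem recognizes and whose stretch lies before every annotated start of the gene. In Dusp8, which held it in 2 places, and in Flt1 it stood before 1 annotated transcript start but inside the bounds of the gene. The stretches are given 5′ to 3′ on the gene's strand, from GRCm38.p6. The CRE began 75 bases before the outermost start of Cds1 (chr5:101764982-101765061, plus strand), 148 before that of Retreg1 (chr15:25843114-25843193, plus strand) and 159 before that of Syn1 (chrX:20921034-20921113, minus strand).
Cds1: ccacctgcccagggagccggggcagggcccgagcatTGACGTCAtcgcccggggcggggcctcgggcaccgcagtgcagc
Retreg1: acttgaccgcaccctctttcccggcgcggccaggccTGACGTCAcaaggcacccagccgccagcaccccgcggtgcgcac
Syn1: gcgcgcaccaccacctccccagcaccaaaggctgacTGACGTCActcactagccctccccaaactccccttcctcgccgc
Of the 5 genes with a CRE, Flt1 and Dusp8 were detected on 1 and 3 of the 6 pre-osteoclast arrays, while Retreg1 was detected on all 6, at 9.70 to 10.0.

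Genes of the cytoskeleton and cell membrane numbered 5, with 7 probes. Rhoc, a GTPase that drives actomyosin contraction and cell motility, had a lowest, median and highest level of 8.77, 9.02 and 9.27 in BMMs, 6.02, 6.31 and 6.77 in pre-osteoclasts, then 9.15, 9.49 and 9.91 in mature osteoclasts. Its second probe, dimmer and detected on 3 of the 6 pre-osteoclast arrays, dipped by 1.11. Rhoj, a Cdc42-like GTPase, and Arap3, a GTPase-activating protein for Arf proteins, dipped by 1.47 and 1.41. Flot1, which organizes membrane rafts, dipped by 1.07 on its member probe and 0.86 on a brighter probe. The 2 member probes named for the tubulin gene Tubb2b disagreed in the second step: one had means of 9.60, 7.40 and 10.33 and the other 11.37, 8.69 and 9.75 in BMMs, pre-osteoclasts and mature osteoclasts. Tubulin genes are near copies of each other, so which gene each probe reads is uncertain.

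Genes of lysosomes, autophagy and membranes numbered 10, with 12 probes. Ppt1, the lysosomal palmitoyl-protein thioesterase, averaged 10.40 ± 0.07, 8.27 ± 0.12 and 9.69 ± 0.13 in BMMs, pre-osteoclasts and mature osteoclasts (SD, n = 6), and Smpdl3a, a secreted phosphodiesterase, 12.25 ± 0.13, 10.44 ± 0.16 and 11.56 ± 0.06. Wipi1, which binds the lipid of forming autophagosomes, dipped by 1.19 and 1.05 on its 2 member probes and by 0.98 on another probe. Retreg1, the receptor that delivers endoplasmic reticulum to autophagosomes, dipped by 1.71. The carboxypeptidase gene Cpq, the γ-secretase subunit gene Aph1b, the SNARE gene Stx3 and the selenoprotein gene Selenok dipped by 1.06, 1.56, 1.07 and 1.04. A list of 24 lysosomal genes held none of the members, and 12 of its genes were lowest in pre-osteoclasts, against 22.4% of all genes tested, with medians of -0.60 against BMMs and -0.45 against mature osteoclasts. This count varied among the other lists: it was 10 of 18 tested genes for hypoxia and glycolysis and 0 of 15 for ribosome biogenesis. Lyzl4, a lysozyme-like gene, was 6.06-fold lower in pre-osteoclasts than in BMMs. For Lyz1 the probes disagreed: 2 dipped, by 1.67 and 1.44, while another, much brighter one had means of 14.73, 14.85 and 14.56. Lyz1 is nearly identical to Lyz2, the locus that carries the Cre, so its values are uncertain.

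The remaining metabolic members were 8 genes of redox chemistry, collagen modification and transport, with 10 probes. Tgm2, transglutaminase 2, which crosslinks proteins, averaged 12.37 ± 0.41, 11.07 ± 0.15 and 12.57 ± 0.11 in BMMs, pre-osteoclasts and mature osteoclasts (SD, n = 6). Gpx3, the secreted glutathione peroxidase, was 5.95-fold lower in pre-osteoclasts than in BMMs and 2.24-fold lower than in mature osteoclasts. The mitochondrial methionine sulfoxide reductase Msrb2 dipped by 1.22 and 1.15 on its 2 probes, Gch1, the first enzyme of tetrahydrobiopterin synthesis, by 1.06, and the collagen prolyl hydroxylase subunit gene P4ha1 by 1.37. Transporters for amino acids (Slc7a7), magnesium (Slc41a2) and copper (Slc31a2) dipped by 1.01 to 1.33. Among the other members, both probes of Syn1, the synaptic vesicle gene of neurons, dipped, by 1.84 and 1.74, and lay above the BMM level in mature osteoclasts, where they averaged 8.25 ± 0.18 and 7.98 ± 0.11, against 7.43 ± 0.19 and 7.29 ± 0.24 in BMMs. The glycosyltransferase genes Gcnt2 and B3galnt1 dipped by 1.24 and 1.41, and Rell1, Ptpn18, Fam114a1 and I830077J02Rik by 1.02 to 1.29. Smim3 was below detection on all 6 pre-osteoclast arrays, and was at least 2.61-fold lower there than in BMMs and at least 1.73-fold lower than in mature osteoclasts, where the bound sets the dim arrays at the lowest signal that counts as detected. Of the other members, 63 were detected on all 6 pre-osteoclast arrays and 17 on 1 to 5 of them.

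Several members were read by more than 1 probe. Of the 69 genes, 11 had 2 or more member probes. Another 21 probes belonged to 12 of the genes but were not members, and 7 of these were detected on all BMM and mature osteoclast arrays. Of the 7, 6 were also lowest in pre-osteoclasts, by 0.43 to 0.98 (Crem, Flot1, Gch1, Stx3, Tubb2b and Wipi1), and 1 was not (Lyz1). By chromosome, 5 member genes (Stard4, Egr1, Crem, Arap3 and Smim3) lay on chromosome 18, or 3.55% of its 141 detected genes, and 1 (Gas6) on chromosome 8, or 0.278% of its 360.

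The members were chosen on the mean of both genotypes, so the difference between genotypes could be tested. A dip within each genotype follows in part from that choice and is a description. The smaller dip had a median of 1.21 in ERαΔLysM cells and 1.31 in ERαf/f cells, and it reached 1 in 69 and 68 of the 81 members, with a lowest value of 0.80 and 0.77. It was deeper in ERαΔLysM cells for 42 members and in ERαf/f cells for 39. In limma's fit over all 13409 tested probes, with Benjamini-Hochberg adjustment, the depth of the dip, taken as the pre-osteoclast mean minus the mean of both other stages, differed between genotypes for 0 members, as for 0% of the tested probes. At an unadjusted p under 0.05 there were 14 members (17.3%), against 5.94% of the tested probes. Members had to be detected on all 12 BMM and mature osteoclast arrays, tested probes on 3 or more of the 18. Shares of members and of tested probes, here and below, are thus not matched for detection. The smallest adjusted p was 0.606, for Egr1, whose smaller dip was 0.87 in ERαΔLysM cells and 1.92 in ERαf/f cells (difference of the dips 0.75 ± 0.20, SE, where a positive value is a shallower dip in ERαΔLysM cells). The lowest difference, -0.80 ± 0.47 for 1 Slc7a7 probe, rested on 1 library: ERαΔLysM pre-osteoclast replicate 2 had a level of 4.72, against 6.56 and 6.91 in the other ERαΔLysM pre-osteoclast arrays and 6.57 to 6.96 in ERαf/f ones. Without it the difference was -0.13. The other Slc7a7 probe read 6.62 in that library. Over the tested probes this difference had a median standard error of 0.21.

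**Figure D5:**
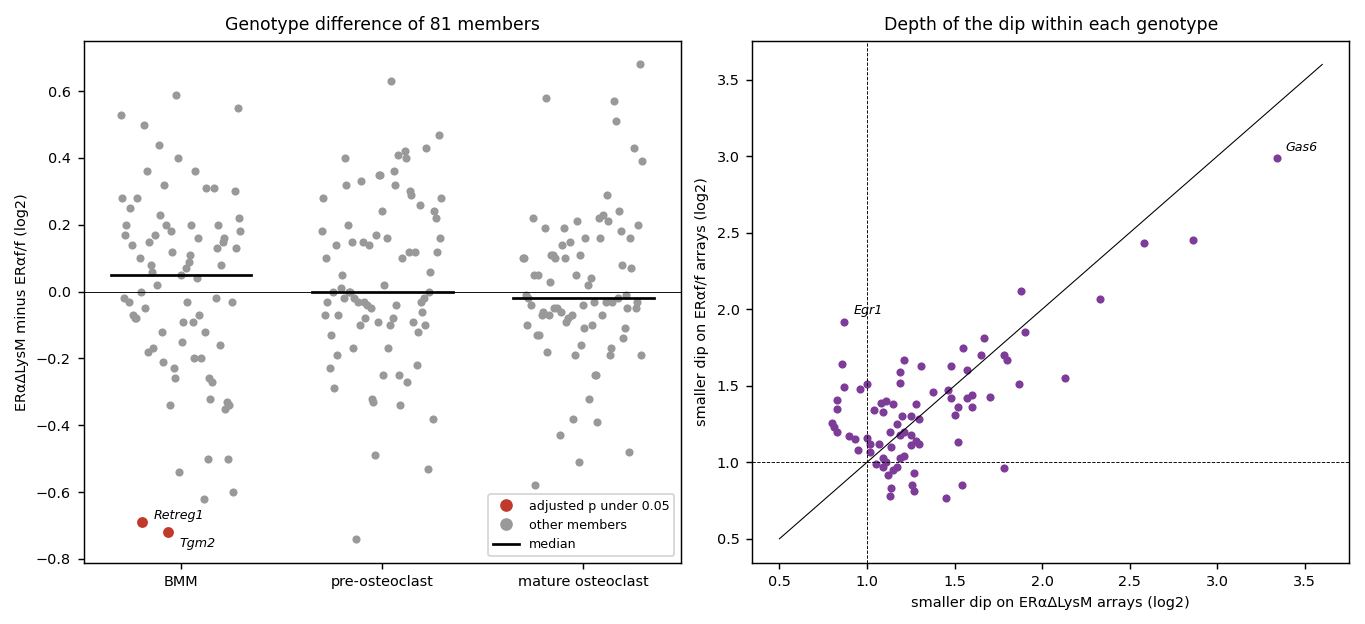
Left, the ERαΔLysM minus ERαf/f difference (log2, y axis) of the 81 members at each stage, with a line at the median and red points for an adjusted p under 0.05 (limma); right, the smaller dip of each member on the ERαΔLysM arrays (x axis) and the ERαf/f arrays (y axis), with a line of equality and dashed lines at 1. Only Tgm2 and Retreg1, in BMMs, are red, and Egr1, at 0.87 and 1.92, lies farthest from the line toward ERαf/f.

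The levels of 2 members differed between genotypes, both in BMMs and both lower in ERαΔLysM cells. Tgm2 was at 12.11, 11.85 and 12.06 in ERαΔLysM BMMs, against 12.58, 12.84 and 12.77 in ERαf/f BMMs (difference -0.72 ± 0.11, SE, adjusted p = 0.0195, limma). Retreg1 was at 11.66, 11.29 and 11.25 in ERαΔLysM BMMs, against 11.91, 12.20 and 12.16 in ERαf/f BMMs (-0.69 ± 0.12, adjusted p = 0.0329). In both genes the genotypes did not overlap. The 2 of 81 members are 2.47%, against 0.321% of all tested probes called in either direction and 0.224% called lower. The tested probes were not matched to the members for detection. At an unadjusted p under 0.05 there were 16 members (19.8%), against 13.4% of the tested probes. The members' median difference was 0.05, with 43 above 0 and 38 below. Next in size after these genes was Egr1, at -0.62 (adjusted p = 0.129, limma). After 2 days of RANKL the difference was 0.14 for Tgm2 and -0.02 for Retreg1, and after 4 days 0.15 and 0.19. The change of this difference from BMMs to a later stage passed the test for 0 members, against 0.0522% of the tested probes for pre-osteoclasts and 0.0597% for mature osteoclasts (adjusted p = 0.108 and 0.0851 for Tgm2, 0.279 and 0.106 for Retreg1 in pre-osteoclasts and mature osteoclasts, limma). In BMMs 2 of 3 ERαΔLysM arrays and 0 of 3 ERαf/f arrays were among the 7 of low signal. With signal as a block the adjusted p was 0.0821 for Tgm2 and 0.0922 for Retreg1, at differences of -0.67 and -0.70. The only bright ERαΔLysM BMM array was at 12.06 for Tgm2 and 11.25 for Retreg1, below all 3 ERαf/f BMM arrays. This rests on 1 array, and the part of array signal in the differences was not tested further. Neutrophil markers were higher in ERαΔLysM BMMs, by a median of 0.57, so the mix of cells may have differed between the genotypes. Whether this has a part in the differences of Tgm2 and Retreg1 was not tested. Both calls were lost without ERαf/f BMM replicate 2 or 3 or ERαΔLysM BMM replicate 2 or 3 (differences of -0.64 to -0.75 for Tgm2 and -0.62 to -0.66 for Retreg1). The call for Retreg1, still at -0.69, was also lost without ERαf/f mature osteoclast replicate 1 or 2 or ERαΔLysM mature osteoclast replicate 2 (adjusted p = 0.0588, 0.0509 and 0.0507, limma).

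In pre-osteoclasts, at the bottom of the dip, 0 members differed between genotypes in limma's test, against 0.0746% of the tested probes, and 13 had an unadjusted p under 0.05, against 8.15%. The differences ran from -0.74 for Slc7a7, in the probe and library described above, to 0.63 for Il13ra1, which had 6.99, 7.46 and 7.29 in ERαΔLysM pre-osteoclasts, against 6.70, 6.78 and 6.38 in ERαf/f pre-osteoclasts (adjusted p = 0.236, limma). Pxdc1, at a measured difference of -0.53 (adjusted p = 0.562, limma), was not above background on any ERαΔLysM pre-osteoclast array. In mature osteoclasts 0 members differed, against 0.172% of the tested probes, and 12 (14.8%) had an unadjusted p under 0.05, against 7.03%. The smallest adjusted p there was 0.127 (limma), for Rdm1, a RAD52 motif protein, at 8.05, 8.14 and 8.08 in ERαΔLysM cells, against 8.82, 8.77 and 8.42 in ERαf/f cells. The widest difference was 0.68, for 1 Sec14l1 probe, with an adjusted p of 0.363 (limma), followed by 0.58 for Fam114a1 (adjusted p = 0.71).

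Since all arrays entered the choice of members, a dip within part of them is a description and not a separate check. Over the bright arrays alone (4 BMM, 3 pre-osteoclast and 4 mature osteoclast arrays) the smaller dip was at least 1 for 72 members, with a median of 1.21 and a lowest value of 0.82. Over the dim arrays alone (2, 3 and 2 arrays) it was at least 1 for 67, with a median of 1.30 and a lowest value of 0.62.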

How the data were processed

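Arrays were grouped by genotype and stage from the sample labels. The authors deposited mean bead intensity per probe without normalization, a detection p-value per probe and array, and log2 values normalized with lumi. Of 26529 features, 832 without a probe ID were left out. The members were chosen on the deposited log2 values; levels and tests used intensity processed with neqc in limma 3.58.1 (R 4.3.3, offset 16), whose values lay within 0.0281 of the deposited ones. The 13409 probes detected (p under 0.05) on 3 or more arrays entered a model of 6 group means (lmFit, eBayes, 12 residual and 3.69 prior degrees of freedom), with p values adjusted over all of them (threshold 0.05). Genotype differences had a median standard error of 0.171. The number of arrays limits the precision. The study names version 1 of the array, and the probe annotation used is that of version 2; a gene of several probes was read in lists by its brightest probe.

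The members, the 51 gene lists, the motifs and the roles were chosen with earlier results of these data known. Named members were the 20 deepest dips, up to 3 per list, those that passed a genotype test, the 3 widest genotype differences per stage, those nearest the threshold, those at the ends of the BMM levels and genes of several member probes; others were named after their values were seen. Whether equal replicate numbers mark cells of the same mice is not stated, and the main model did not pair them. The pipeline was tested on simulated data. Alternatives were other values, filters, priors, weights, blocks and thresholds and leaving out each array. The brightness of arrays, the change of genotype differences between stages and the sterol motif were added after seeing the data. Figures were drawn with matplotlib 3.10.9.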

Additional observations from a re-analysis of the deposited data

How the results depend on the processing

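The number of probes and genes that met the rule was 81 and 69. Without background correction both were 22, with a median smaller dip of 0.85 over the members, against 1.24. At a threshold of 0.8 they were 128 and 111, and at 1.5 they were 17 and 16. Leaving out each array gave 75 to 85 probes and 66 to 73 genes, a median of 1.22 to 1.27 and 78 to 79 members without overlap. On median-centred arrays 68 probes met the rule, of which 58 were members. Members below detection on all pre-osteoclast arrays numbered 1, but 11 with detection set at p under 0.01, and 1 to 3 when an array was left out (3 without ERαΔLysM pre-osteoclast replicate 1).

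The count of members that differed between genotypes in BMMs, 2, was 6 without background correction, 8 on median-centred arrays, 5 with array weights, and 0 with only the 6 arrays of the stage or with signal as a block. Median centring moved the median of all tested probes to -0.43 in BMMs, where Tgm2 was at -1.33. Leaving out each array gave 0 to 2, losing calls without the arrays named above. In mature osteoclasts the count was 1 in place of 0 without background correction and with array weights, and 0 when each array was left out. In pre-osteoclasts and for the depth of the dip it was 0 under every alternative run. Arrays of the same replicate number showed little common deviation at the median (18 pairs within a genotype, median r = 0.0163, 1 pair over 0.1). Across genotypes the 27 such pairs had a median r of 0.0175, with 2 over 0.1 and a highest of 0.355. With the replicate number as a block the counts were 2 in BMMs and 0 for the other stages and the dip. None of the called or widest genotype differences reversed. Tgm2, at 0.14 in pre-osteoclasts and 0.15 in mature osteoclasts, was at -0.14 and -0.08 there on median-centred arrays, where the medians of all tested probes were -0.20 and -0.13. Probes below detection give a bound only, and Esr1 was below it throughout.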
